A study of Mus musculus with 12 samples.

Results

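The genes described here encode the proteins of the cytosolic ribosome. They were chosen by gene symbol, as Rpl or Rps followed by a number, together with Rplp0, Rplp1, Rplp2 and Rpsa. Of 21031 mouse coding genes, 77 were taken this way, 46 of the large and 31 of the small subunit. The deposited files name 47 of the 77, and 42 had a called peak of Jmjd2a or Jmjd2c within 1000 bp of the start site. Another 5, among them Rpl28, Rps14, Rps24 and Rps29, were named by farther peaks, and 30 were not named.

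The study profiled chromatin by ChIP-seq in leukaemic granulocyte-macrophage progenitors (L-GMP) transformed by the MLL-AF9 fusion, a driver of acute myeloid leukaemia. The cell lines came from leukaemic mice, and how many lines a library holds is not stated. Every group carried the genotype Jmjd2a/b/cf/f;Rosa26::CreERT2 on C57BL/6, so the 3 demethylase genes Jmjd2a, Jmjd2b and Jmjd2c are flanked by loxP sites and a tamoxifen-inducible Cre is expressed from Rosa26. Cells grew in 20% serum with 10 ng/ml IL-3, and were either left untreated (Ctrl) or given 500 nM 4-hydroxytamoxifen (OHT) for 96 h to delete the floxed genes. The 12 libraries comprise 1 per condition for Jmjd2a and for Jmjd2c and 2 per condition for H3K9me3 and for H3K36me3. The deposited peak lists hold positions, with no height and no value per library, so depth, the effect of OHT and both histone marks were not analysed here. The sources used here do not say which libraries entered a list.

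Ribosomal protein genes are transcribed at very high rates in growing cells, and the cell has to make the proteins of a ribosome in matched amounts. Their mRNAs start with a run of pyrimidines, the terminal oligopyrimidine motif, through which the mTORC1 pathway controls their translation. Jmjd2a (Kdm4a) and Jmjd2c (Kdm4c) are demethylases of H3K9 and H3K36 methylation whose Tudor domains bind H3K4me3, a mark of active start sites.

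The start regions below show how the sequence at the start varies among genes with and without peaks. The first 4 genes had both proteins near the start, Rpl14 and Rps28 had Jmjd2c alone, and Rpl10 and Rpl10a had neither. Each run holds 150 bases before the start and 30 bases from the start onward, 5′ to 3′ along the gene, from RefSeq on GRCm38.p6. Capitals mark CCGGAA or its reverse complement, the core recognised by ETS factors such as GABP, and a pyrimidine run at the start. Rpl35 lies at chr2:39005102-39005281 on the minus strand, Rps13 at chr7:116334161-116334340 on the minus strand, Rps21 at chr2:180257229-180257408 on the plus strand and Rps6 at chr4:86857338-86857517 on the minus strand. Rpl14 lies at chr9:120571367-120571546 on the plus strand, Rps28 at chr17:33824533-33824712 on the minus strand, Rpl10 at chrX:74270666-74270845 on the plus strand and Rpl10a at chr17:28328321-28328500 on the plus strand.
Rpl35: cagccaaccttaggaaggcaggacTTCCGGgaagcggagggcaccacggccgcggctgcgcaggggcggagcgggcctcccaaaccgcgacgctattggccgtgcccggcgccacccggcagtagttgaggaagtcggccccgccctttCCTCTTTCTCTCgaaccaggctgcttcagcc
Rps13: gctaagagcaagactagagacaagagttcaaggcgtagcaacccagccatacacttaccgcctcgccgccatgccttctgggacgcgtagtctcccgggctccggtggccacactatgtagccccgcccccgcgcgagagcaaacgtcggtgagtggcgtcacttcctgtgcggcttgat
Rps21: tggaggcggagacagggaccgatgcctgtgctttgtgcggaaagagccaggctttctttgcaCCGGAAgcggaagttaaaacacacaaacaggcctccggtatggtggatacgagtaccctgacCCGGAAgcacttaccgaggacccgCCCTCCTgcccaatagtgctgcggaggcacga
Rps6: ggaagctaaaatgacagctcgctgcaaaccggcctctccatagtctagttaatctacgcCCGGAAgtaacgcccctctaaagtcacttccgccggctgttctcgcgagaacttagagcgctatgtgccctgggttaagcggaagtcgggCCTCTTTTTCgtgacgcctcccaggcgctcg
Rpl14: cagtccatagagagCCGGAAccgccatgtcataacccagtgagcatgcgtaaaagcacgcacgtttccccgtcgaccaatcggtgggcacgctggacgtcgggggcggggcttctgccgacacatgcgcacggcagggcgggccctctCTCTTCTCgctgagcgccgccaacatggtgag
Rps28: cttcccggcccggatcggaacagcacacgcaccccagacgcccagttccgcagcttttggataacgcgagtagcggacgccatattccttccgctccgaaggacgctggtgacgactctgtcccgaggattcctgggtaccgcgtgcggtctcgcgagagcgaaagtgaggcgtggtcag
Rpl10: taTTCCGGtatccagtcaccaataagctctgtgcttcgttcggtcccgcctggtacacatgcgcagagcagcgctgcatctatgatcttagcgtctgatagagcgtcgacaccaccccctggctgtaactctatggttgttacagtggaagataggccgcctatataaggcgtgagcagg
Rpl10a: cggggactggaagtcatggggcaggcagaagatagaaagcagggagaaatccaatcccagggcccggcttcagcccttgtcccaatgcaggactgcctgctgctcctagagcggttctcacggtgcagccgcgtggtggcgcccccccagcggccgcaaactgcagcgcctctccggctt

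Counted this way, Rps6 has a run of 10 pyrimidines at its start and Rpl35 a run of 12, and each has an ETS core upstream. Rps21 has 2 ETS cores and a run of 7 pyrimidines, and Rpl14 has 1 core and a run of 8. At Rpl35 and Rpl14 the unbroken run is longer, since it begins upstream of the capitals. Neither Rps13 nor Rps28 had a core in this stretch or a counted run at the annotated start, although both had peaks. Rpl10 had a core and no peak, and Rpl10a had neither motif and no peak.

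Jmjd2c lay near 39 of the 77 ribosomal protein genes (50.6%), against 44.6% of all coding genes. Jmjd2a lay near 20 (26%), against 32.3% of all coding genes. Both lay near 17 (22.1%), against 28.9%. Jmjd2c was alone at 22 genes (28.6%), against 15.7% of all coding genes. Jmjd2a was alone at 3 (3.9%, against 3.34%), which were Rpl24, Rpl37a and Rps9, and 35 genes had neither (45.5%, against 52.1%). The share with Jmjd2c alone stood furthest from its background. Each protein has a single list and genes are not replicates, so these and all later differences are described without a test.

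Shares were higher in the small subunit for both proteins. Jmjd2a lay near 11 of 31 small subunit genes (35.5%) and 9 of 46 large subunit genes (19.6%). Jmjd2c lay near 18 small subunit genes (58.1%) and 21 large subunit genes (45.7%). Both lay near 10 small subunit genes (32.3%) and 7 large subunit genes (15.2%). The large subunit had 23 genes with neither protein (50%) and the small subunit 12 (38.7%). The gap between the subunits was 15.9 percentage points for Jmjd2a, 12.4 for Jmjd2c and 17.0 for both. Only genes the files name could be called, 24 of 46 in the large subunit and 23 of 31 in the small. Part of the gap may therefore rest on naming, since Rpl15, Rpl18 and Rpl36, described below, are large subunit genes with peaks that were not counted.

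**Figure D1:**
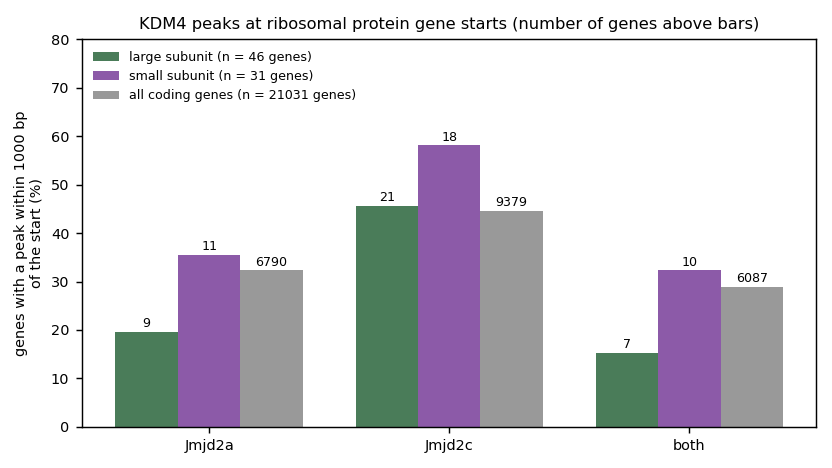
Share of genes (%) with a called peak within 1000 bp of the start for Jmjd2a, Jmjd2c and both, in large subunit, small subunit and all coding genes, with the number of genes above each bar. The small subunit bars are the highest in each group, and the large subunit bars for Jmjd2a (19.6%) and for both (15.2%) are the lowest.

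The result was like that at starts taken from RefSeq for genes with a promoter entry. Of 57 ribosomal protein genes there, 15 had Jmjd2a (26.3%), 29 Jmjd2c (50.9%) and 12 both (21.1%), against 33.2%, 46.4% and 29.9% of 16853 coding genes. By subunit, Jmjd2a lay near 10 of 23 small subunit genes (43.5%) and 5 of 34 large subunit genes (14.7%), and Jmjd2c near 14 (60.9%) and 15 (44.1%).

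Where Jmjd2a lay near a ribosomal protein gene, Jmjd2c usually did as well, at 17 of 20 genes (85%). Over all coding genes this share was 89.6%. The reverse share was lower in the ribosomal protein genes: 17 of 39 genes with Jmjd2c had Jmjd2a (43.6%), against 64.9% of all coding genes with Jmjd2c. It was 7 of 21 in the large subunit (33.3%) and 10 of 18 in the small subunit (55.6%).

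Jmjd2a peaks left the start uncovered at 14 of 20 genes (70%), against 30.8% of 6753 coding genes with a Jmjd2a peak and a known strand. At 13 of the 14 the peak lay upstream (65% of the 20, against 12.1%), and Rps13 was the exception, with its peak downstream. The upstream peaks ended 26 to 535 bp before the start, with a median of 109 bp. Among them, the peak at Rpl7, the farthest, is named for the neighbour Rdh10 and that at Rps25 for Trappc4. At 250 bp before the start, Jmjd2a peaks covered 16 of the 20 genes (80%, against 55.2% of all). At 250 bp after the start they covered 3 (15%, against 78.7%). Among all coding genes coverage was highest 200 bp after the start, at 79.6%.

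Jmjd2c peaks left the start uncovered at 13 of 39 genes (33.3%), against 6.54% of 9344 coding genes. These 13 were less one-sided: 6 genes had the peak upstream, 5 downstream, and Rps16 and Rps3a1 had a peak on each side of a bare start. Coverage by Jmjd2c was 87.2% at 250 bp before the start, 66.7% at the start and 79.5% at 250 bp after it. The corresponding shares of all coding genes were 79.1%, 93.5% and 96.5%.

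**Figure D2:**
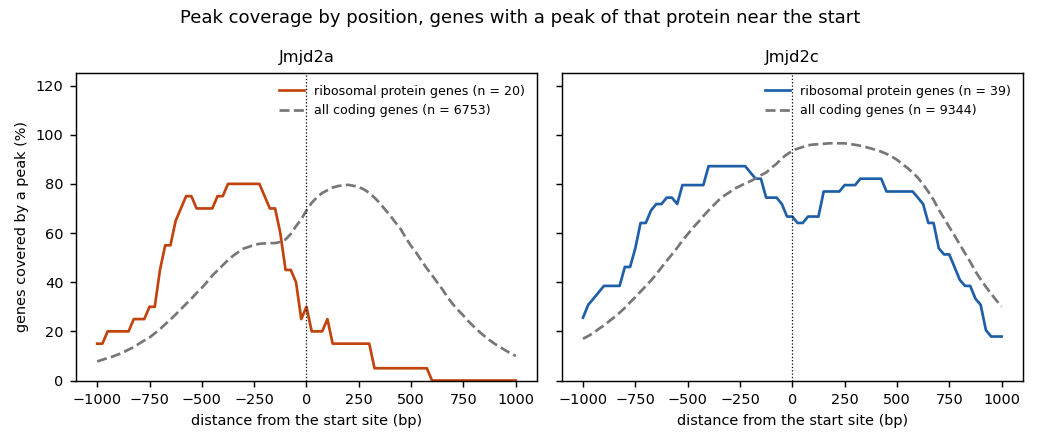
Share of genes (%) covered by a peak at each distance from the start (bp, negative upstream), for ribosomal protein genes (solid) and all coding genes (dashed) with a peak of that protein near the start. Jmjd2a coverage of ribosomal protein genes is highest upstream and falls to 15% at 250 bp downstream, and Jmjd2c coverage dips at the start to 66.7%.

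The start used is the one the files name, which for some genes is not the RefSeq gene's 5′ end. Measured from that end, the start was uncovered by Jmjd2a at 15 of 21 ribosomal protein genes (71.4%) and 39.6% of 6445 coding genes, with the peak upstream at 12 (57.1%) and 10.3%. For Jmjd2c it was uncovered at 15 of 40 (37.5%) and 13.6% of 9045. Single genes change place: from that end, Jmjd2a lay downstream at Rpl22 and Rps12 and over the start at Rpl29. At the starts of RefSeq promoter entries the upstream share was lower. There the Jmjd2a peak lay upstream at 7 of 15 ribosomal protein genes (46.7%) and 12.3% of 5457 coding genes.

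Both subunits showed the displaced peaks. Jmjd2a covered the start at 2 of 9 large subunit genes (22.2%) and 4 of 11 small subunit genes (36.4%). Jmjd2c covered it at 14 of 21 (66.7%) and 12 of 18 (66.7%).

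Peak width moves with this measure, since a wide peak is more likely to reach the start. Among genes whose widest near Jmjd2a peak was under the list median of 706 bp, the start was covered at 5 of 15 ribosomal protein genes (33.3%) and 45.2% of 2685 coding genes, and the peak lay upstream at 9 (60%) and 22.8%. Among those with a wider Jmjd2a peak it was covered at 1 of 5 (20%) and 85% of 4068. For Jmjd2c peaks under the list median of 1302 bp, the start was covered at 3 of 16 ribosomal protein genes (18.8%) and 86.4% of 3737 coding genes. With a wider Jmjd2c peak it was covered at all 23 ribosomal protein genes and at 98.2% of 5607.

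Ribosomal protein genes have many processed pseudogenes, which copy exons but not promoters, and the sources used here do not say how reads matching several places were handled. RefSeq names 315 pseudogenes after 62 of the 77 genes. At least 1 copy was named for 12 of the 13 genes with Jmjd2a upstream (92.3%) and 4 of the 6 with the start covered (66.7%). For Jmjd2c it was all 6 genes with an upstream peak and 21 of 26 with the start covered (80.8%). The median number of copies per gene was 1.0 upstream and 1.5 with the start covered for Jmjd2a, and 6.0 and 1.5 for Jmjd2c. By state, a copy was named for 94.1% of genes with both, 72.7% with Jmjd2c alone and 82.9% with neither. The part of such copies in the position of the peaks was not tested.

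Spans below are in bp from the start along the gene, with the start at 0. Among large subunit genes, Rpl35, a protein of the exit tunnel rim, had a Jmjd2a peak of 444 bp from -435 to 8 (chr2:39005123-39005566, mm10, over the first exon). Its Jmjd2c peak was 2055 bp wide, from -1050 to 1004. At Rpl22, an rRNA-binding protein needed for T cell development in mice, Jmjd2a spanned -724 to -75 (chr4:152325002-152325651) inside a Jmjd2c peak that covered the start (-749 to 1034). These spans are from the start at 152325726, and both peaks lie downstream of another listed start at 152324436. Rpl29 had the same arrangement, with Jmjd2a from -687 to -103 and Jmjd2c from -812 to 851 around the start the files name, and so had Rpl30, with Jmjd2a from -625 to -31 and Jmjd2c from -1250 to 435.

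At 2 large subunit genes both peaks stopped short of the start. At Rpl3, which reaches towards the peptidyl transferase centre, Jmjd2a spanned -715 to -146 (chr15:80083552-80084121) and Jmjd2c -770 to -142. At Rpl34, Jmjd2a spanned -581 to -125 and Jmjd2c -603 to -55. Rpl7 was the farthest case: its Jmjd2a peak, from -1818 to -535 (1284 bp), is named for the neighbouring gene Rdh10, and its Jmjd2c peak, at 2800 bp, was the widest at any ribosomal protein gene.

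Rpl24, the gene mutated in the Belly spot and tail mouse, had a Jmjd2a peak over its start, from -495 to 112 (chr16:55965780-55966387), and no Jmjd2c peak. Rpl37a had Jmjd2a alone from -833 to -109 (chr1:72710427-72711151). In the small subunit, Rps9, which takes part in decoding fidelity, had Jmjd2a alone from -389 to 18 (chr7:3703652-3704059). All 3 peaks began upstream, and none was wider than 725 bp.

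Rps6, the substrate of the S6 kinases below mTORC1, had 2 Jmjd2a peaks, of 403 bp over the start (-84 to 318, chr4:86857049-86857451) and of 460 bp upstream (-957 to -498). A Jmjd2c peak of 1832 bp covered the start (-734 to 1097). Rps27, a zinc finger protein of the small subunit, had Jmjd2a from -703 to 106 and Jmjd2c from -737 to 605, peaks that also name Rab13 and Rps27rt. At Rps12 the peaks of the proteins did not overlap, with Jmjd2a over the start the files name (-18 to 304) and Jmjd2c upstream of it (-1117 to -140).

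The other small subunit genes with both proteins mostly repeated the upstream Jmjd2a peak. Rps7, which can bind Mdm2, had Jmjd2a from -629 to -37 and Jmjd2c from -923 to 752. Rps26, at the mRNA exit channel, had Jmjd2a from -691 to -26 and Jmjd2c from -408 to 431. Rps21 had a Jmjd2a peak of 1300 bp from -1477 to -178, and Rps25, used by some viral internal ribosome entry sites, a peak of 980 bp from -1062 to -83 that is named for Trappc4. In both, Jmjd2c covered the start, from -1208 to 683 and from -1162 to 637. At Rps16, Jmjd2a (-612 to -212) lay within the upstream of the 2 Jmjd2c peaks (-657 to -45 and 63 to 701). Rps13 differed, with Jmjd2a downstream (89 to 588) inside a Jmjd2c peak from -973 to 1028.

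**Figure D3:**
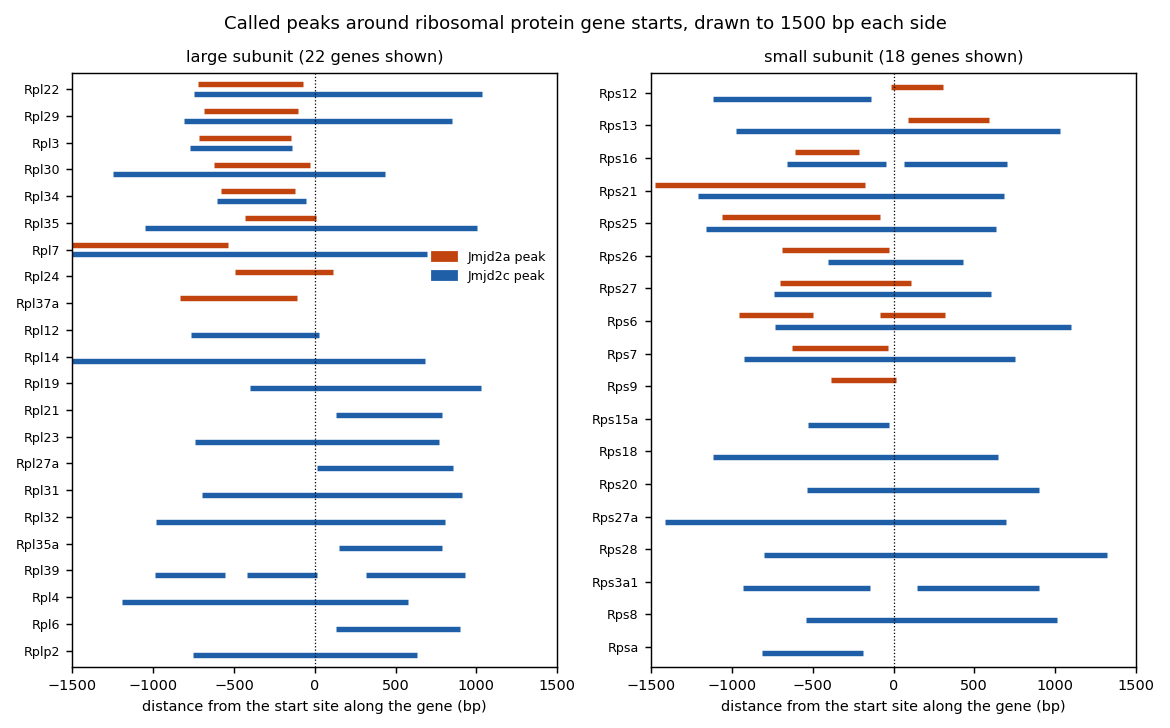
Called peaks of Jmjd2a (orange) and Jmjd2c (blue) at 22 large and 18 small subunit genes with a peak, by distance from the start along the gene (bp, drawn to 1500 bp each side). Most Jmjd2a bars end left of the dotted start line, and most Jmjd2c bars cross it.

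Among the 17 genes with both proteins, the most frequent arrangement was Jmjd2a upstream with Jmjd2c over the start, at 8 genes (47.1%). Over 6044 coding genes with both, this arrangement made up 10.5%, and both proteins over the start made up 67.9%. The latter held at 3 ribosomal protein genes (17.6%), Rpl35, Rps27 and Rps6. Peaks of both proteins overlapped by at least 1 bp at 15 of the 17 (88.2%), against 98.8% of coding genes with both.

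Of the 22 genes with Jmjd2c alone, the 5 with the widest peaks were Rpl14 (2450 bp, chr9:120569752-120572201), Rps28 (2125 bp, chr17:33823177-33825301), Rps27a (2112 bp), Rpl32 (1793 bp) and Rpl4 (1775 bp). Each of these 5 peaks covered the start. Rps27a encodes ubiquitin fused to a small subunit protein, and its peak also names Clhc1. Rpl39, Rps15a, Rpsa and Rpl35a were among the 5 with the narrowest. X-linked Rpl39 had 3 peaks of 434, 440 and 614 bp, the first of them over the start. Rps15a (502 bp, -529 to -28) and Rpsa (626 bp, -815 to -190), which is also known as the laminin receptor, had an upstream peak. Rpl35a (641 bp, 147 to 787) had a downstream one.

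Jmjd2a peaks at ribosomal protein genes had a lower median width than those near starts at large. The 21 peaks had a median of 593 bp (range 323 to 1300), against 761 bp (interquartile range 530 to 1062) for 6908 Jmjd2a peaks near any start, and 17 of the 21 lay below that median. The 43 Jmjd2c peaks had a median of 1383 bp (range 434 to 2800), close to the 1366 bp of 9053 Jmjd2c peaks near starts. Their spread was wider, with an interquartile range of 649 to 1780 bp against 1031 to 1729 bp. Jmjd2c peaks at genes with both proteins had a median of 1670 bp and those at genes with Jmjd2c alone 846 bp. Medians were alike in the large and small subunit, at 595 and 546.5 bp for Jmjd2a and 1383 and 1390 bp for Jmjd2c.

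**Figure D4:**
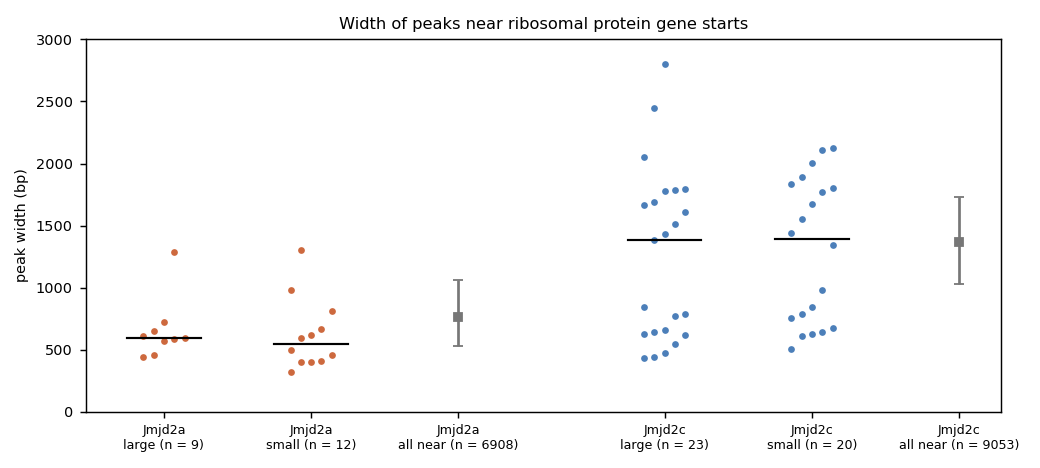
Width (bp) of each peak near a large or small subunit gene start (points, black line at the median), beside the median and interquartile range of all peaks near starts (grey). Jmjd2a medians of 595 and 546.5 bp lie below the grey median of 761 bp, and Jmjd2c widths split into a narrow group under 1000 bp and a wide group.

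The 35 genes with neither protein included Rpl5, Rpl7a, Rpl8, Rpl9, Rpl10, Rpl10a, Rpl11, Rpl13, Rpl13a, Rpl15, Rpl17, Rpl18, Rpl23a, Rpl26, Rpl27, Rpl28, Rpl36, Rpl36a, Rpl37, Rpl38, Rpl41, Rplp0 and Rplp1 in the large subunit. In the small subunit they included Rps2, Rps3, Rps4x, Rps10, Rps14, Rps15, Rps19, Rps23, Rps24 and Rps29. For 21 of them the nearest peak of either protein was over 10000 bp away, and the median distance was 14220 bp. Another 12 had a peak beyond 1000 bp and within 10000 bp. Just beyond the 1000 bp limit lay Rpl41 (Jmjd2c at 1238 bp, Jmjd2a at 1463 bp), Rpl23a (Jmjd2c at 1501 bp from the nearer RefSeq gene end) and Rpl28 (Jmjd2a at 1861 bp). The farthest peaks within the limit were at Rpl7 (Jmjd2a at 535 bp), Rps6 (Jmjd2a at 498 bp) and Rpl39 (Jmjd2c at 553 bp). Rps6 and Rpl39 also had a peak of the same protein over the start.

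For some genes the absence rests on naming or on the start used. A Jmjd2c peak lay 214 bp from the RefSeq start of Rpl15 but is named for Nkiras1. Peaks of both proteins lay over a RefSeq end of Rpl36 and are named for 2410015M20Rik. Which end is the start of Rpl36 was not determined. At Rpl18 a Jmjd2a peak lay upstream within 1000 bp of the RefSeq gene's 5′ end. From the start of its promoter entry the nearest Jmjd2a peak was 2720 bp away. Rpl15, Rpl18 and Rpl36 all belong to the large subunit, so counting them would raise the large subunit shares alone.

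By role in the ribosome, no group was covered throughout. In the stalk that recruits elongation factors, Rplp2 and Rpl12 had Jmjd2c alone, and Rplp0 and Rplp1 had neither. Rpl5, Rpl11 and Rpl23 can, like Rps7, bind Mdm2, the ubiquitin ligase of p53. Rpl23 had Jmjd2c alone and Rpl5 and Rpl11 had neither, while Rps7 had both. Around the exit tunnel 6 of 9 genes had Jmjd2c (66.7%) and 2 had Jmjd2a (22.2%), against 44.6% and 32.3% of all coding genes. Along the mRNA channel 3 of 8 had Jmjd2c (37.5%), which were Rps26, Rps27a and Rps28, and Rps26 also had Jmjd2a (12.5%). With so few genes per list, these shares are not read as traits of a role. Rps6 had both proteins, and Rack1, a signalling scaffold on the small subunit, had neither.

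Of 20 genes whose human counterparts are mutated in Diamond-Blackfan anaemia or lost in the 5q- syndrome, 5 had Jmjd2a (25%) and 9 Jmjd2c (45%). These shares are close to those of all 77 genes (26% and 50.6%). Among all coding genes they were 32.3% and 44.6%. Genes with both proteins included Rps7, Rps26, Rps27 and Rpl35. Jmjd2c was alone at Rps15a, Rps28, Rpl31 and Rpl35a. Rps19 and Rps14, the best known genes of these diseases, had neither, nor had the other 9, Rpl5, Rpl11, Rpl15, Rpl18, Rpl26, Rpl27, Rps10, Rps24 and Rps29.

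Among 10 ribosomal proteins and relatives with other symbols, 6 had Jmjd2c (60%, against 44.6% of all coding genes). Of these, Rpl22l1 also had Jmjd2a (10%, against 32.3%). Jmjd2c alone lay near Fau (1902 bp), which encodes a ubiquitin-like protein fused to a small subunit protein, and near Rpl36al (2482 bp), Rpl7l1 (1874 bp) and Rps27l (1850 bp). Besides Rack1, the paralogs Rpl3l, Rpl10l and Rpl39l had neither.

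Shares were higher than among ribosomal protein genes in the lists of genes that make or work with the ribosome. Of 34 ribosome assembly factors and RNA polymerase I genes, 30 had Jmjd2c (88.2%) and 19 Jmjd2a (55.9%), against 50.6% and 26% of ribosomal protein genes. Among all coding genes the shares were 44.6% for Jmjd2c and 32.3% for Jmjd2a. The exceptions without either were Ncl, Dkc1 and Taf1c, and Nhp2 had Jmjd2a alone. Of 15 translation factors and other terminal oligopyrimidine genes, 11 had Jmjd2c (73.3%) and 6 Jmjd2a (40%), and Eef1g, Eef2, Pabpc1 and Hnrnpa1 had neither. Of 10 factors known to act on ribosomal protein promoters or mRNAs, 9 had Jmjd2c and 5 of these also Jmjd2a, among them Myc, Gabpa and Larp1, which binds terminal oligopyrimidine mRNAs. Yy1 had neither.

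The promoters were searched from 250 bases before to 50 after the RefSeq start, on both strands, for the 57 genes with an entry. The ETS core CCGGAA was in 29 (50.9%), against 19.5% of 16853 coding promoters. It was in 7 of 12 with both proteins (58.3%), 10 of 16 with Jmjd2c alone (62.5%), none of 3 with Jmjd2a alone and 12 of 26 with neither (46.2%). Among all coding promoters the core was in 33.1% with both, 32% with Jmjd2c alone, 14% with Jmjd2a alone and 8.21% with neither. A run of at least 5 pyrimidines at the start, counted from a C between bases -2 and +5, was in 22 (38.6%, against 12.3%). By the same groups it was in 6 (50%), 6 (37.5%), none and 10 (38.5%). Pyrimidines before the first counted C were left out, so a run could begin farther upstream or with T. The count also depends on the annotated start being right to a few bases. Of 33 ribosomal protein genes with both starts, the files and RefSeq gave the same base at 28. A gene without a counted run may therefore still have one at its true start. Large and small subunit promoters had the ETS core at 50% and 52.2% and the pyrimidine run at 35.3% and 43.5%.

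Other motifs were nearer to the background. GGGCGG, the GC box, was in 59.6% (background 47.7%), TATAAA in 8.77% (13.2%), CACGTG, the E-box bound by Myc, in 8.77% (8.11%), and AAGATGGC, the YY1 motif, in 7.02% (3.29%). Among ribosomal protein promoters the GC box was in 41.7% with both proteins, 62.5% with Jmjd2c alone and 73.1% with neither. Among all coding promoters these shares were 69.2%, 68.9% and 27.4%. Motifs were counted separately even where their letters overlapped. A match is a description of the letters and not of a bound site.

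Ribosomal protein promoters without a peak had a higher CpG ratio than other promoters without one. Their median ratio of observed to expected CpG was 0.807, against 0.26 for the 8628 coding promoters with neither protein, and 0.877 for all 57. The ETS core was in 46.2% of them and in 8.21% of those 8628.

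Genes that hold a small nucleolar RNA in an intron, as many ribosomal protein genes do, made up 30 of the 77 (39%). Of the 22 genes with Jmjd2c alone 14 were such hosts (63.6%), against 5 of 17 with both (29.4%), none of 3 with Jmjd2a alone and 11 of 35 with neither (31.4%). A coding gene starting in the other direction within 1000 bp was found for 8 of the 57 genes in the promoter table (14%). These were 4 of 16 with Jmjd2c alone (Rpl12, Rpl35a, Rps18 and Rps28), 1 of 12 with both (Rps27) and 3 of 26 with neither (Rpl7a, Rpl9 and Rpl18). The host and neighbour shares were not set against all coding genes, so whether they are particular to ribosomal protein genes is open.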

How the data were processed

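ChIP-seq libraries of Jmjd2a, Jmjd2c, H3K9me3 and H3K36me3 were made from untreated and OHT-treated cells. The authors deposited peak positions in bp for Jmjd2a (8977 peaks) and Jmjd2c (10521), each with a nearest start site and distance, and 6940 windows of 1 kb each side around starts bound by both, per the file headers. Bowtie 0.12.7, SAMtools, bedtools 2.25.0 and mm10 are named, per the submitters' processing notes. The peak caller, threshold, control and pooling are not stated in the sources used here. Depth is unknown, and a shallow library misses weak sites.

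A gene was called when a peak naming its start lay within 1000 bp of it, or when the window table held it. Deposited distances were recomputed and equalled those deposited at 8441 of 8441 Jmjd2a and 8981 of 8981 Jmjd2c peaks with 1 start site. Positions are printed counting from 1. All 47 symbols in the files matched a RefSeq table on GRCm38.p6, the primary assembly of mm10, which has 79 symbols of the pattern, 2 of them pseudogenes. Strands came from RefSeq promoters, the window table or the gene ends. The background was all coding genes with a curated transcript. The genes and lists were chosen with earlier results of these data known. Named are all genes with Jmjd2a, the 5 widest and 5 narrowest with Jmjd2c alone, the nearest peaks of genes with neither and every list gene, except some genes that are not reported here. Alternatives were windows of 500 and 5000 bp, peaks that cover the start, RefSeq starts and 5′ gene ends, the wider 50% of each list, and gene sets without X-linked genes or genes with a divergent neighbour. The split by width, the positions from 5′ gene ends and the pseudogene count were added after seeing the data. Python 3.11.15, numpy 2.4.6, pandas 2.3.3 and matplotlib 3.10.9 were used, and the calling step was tested on simulated data.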

Additional observations from a re-analysis of the deposited data

How the results depend on the processing

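No paired analysis was possible because the deposited peak lists carry no value per library, and no library could be left out for the same reason. Over 13 counts and 2 median widths with 76 alternatives, 58 values stayed within 1.5 times the reported one and 18 did not. Counting a gene only where a peak covers the start gave 6 genes with Jmjd2a (2 large, 4 small) and 3 with both (1 large, 2 small). Keeping the wider 50% of each list gave 5 with Jmjd2a (2 large, 3 small), 23 with Jmjd2c (12 large, 11 small) and 4 with both (1 large, 3 small). Fewer peaks enter both counts by construction. Jmjd2a left 9 starts uncovered at RefSeq starts, of 15 (60%), against 33.4% of 5457 coding genes. With the wider peaks Jmjd2a left 4 of 5 uncovered and Jmjd2c 0 of 23. The share of the small subunit stayed above that of the large one in each setting run. The gap was 5.33 to 28.8 percentage points for Jmjd2a, 8.27 to 16.8 for Jmjd2c and 4.28 to 30.3 for both, the highest in the genes of the promoter table alone. Settings other than RefSeq starts took only genes the files name, 24 of 46 in the large subunit and 23 of 31 in the small. Unnamed genes could not gain a call at 5000 bp even with a nearer peak, as at Rpl41, Rpl23a and Rpl8 (large) and Rps2 (small). The gap at that window therefore depends on the naming. A window of 500 bp lost Jmjd2a at Rpl7, one of 5000 bp, which takes the genes the files name, added Rpl12, Rpl28 and Rps24 for Jmjd2a and Rpl28 and Rps24 for Jmjd2c, and RefSeq starts added Jmjd2c at Rpl15. With a single list per protein and no score, weak binding and no binding at genes without a peak cannot be told apart.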
